A study of Mus musculus with 14 samples.

Results

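RNA levels of 10 genes used as enzymes and markers of mature oligodendrocytes were followed in mouse brain tissue and in culture, comparing samples that carry the label Qk-KO with samples that carry the label WT. The genes are Aspa, Car2, Qdpr, Carns1, Klk6, Adamts4, Serpinb1a, Ndrg1, Plekhb1 and Plekhh1. They were taken by gene symbol, and each of the 10 has 1 row in each of the deposited tables, which list 46983 genes each. All 10 were among the 19935 genes tested in callosum. In culture, 9 were among the 17503 genes tested, and Klk6 lay under the filter on low counts.

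Oligodendrocytes wrap axons in myelin, and as they mature they switch on enzymes that supply acetate, bicarbonate and cofactors, together with secreted proteases and membrane adaptor proteins. Qk encodes quaking, a protein that binds RNA and is abundant in myelinating glia.

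The tissue was the corpus callosum of mice of an FvB/C57BL6 hybrid strain, all carrying Plp-CreERT2, a tamoxifen-activated Cre whose driver limits recombination to the oligodendrocyte lineage and other cells in which it is active. Both Qk alleles were floxed in 4 animals (QKLoxP/LoxP), labelled Qk-KO, and 1 allele in the 4 animals labelled WT (QKLoxP/+). All 8 received tamoxifen at 8 weeks of age, and tissue was taken 4 days later. The cultures were oligodendrocytes differentiated from neural stem cells of the same hybrid strain in medium that held T3 (50 ng/ml) and IGF-1 (100 ng/ml). There were 3 libraries per genotype, 1 each at passages 7, 12 and 13. Library names pair a Qk-KO culture with a WT culture at each passage, and the authors' deposited comparison holds no term for this pairing. Descriptions of cultures labelled Qk-KO carry 40HT and those of cultures labelled WT carry EtOH, so genotype and treatment cannot be told apart there, and their genotype is given as Qk-/- or WT with no word on which Cre they carry. Nothing in the labels says that the cultures come from separate animals, so their p-values may measure technical spread alone.

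Summed fitted counts of a callosum library were at least 15048646 and at most 27666519, and those of a culture library ran from 38325833 up to 48912999. The library columns hold a model's fitted means, so that once depth is divided out every library of a genotype shows the same value, and 1 level per genotype stands for all of its libraries. Levels are given as fitted CPM, in which a library's fitted counts are scaled to 1 common total, and per kilobase of annotated exon where genes are set side by side. Log2 changes (labelled Qk-KO minus WT), their standard errors (SE) and adjusted p values come from the authors' deposited table, with a threshold of 0.05. Qk itself had a log2 change of 0.32 ± 0.12 (adjusted p = 0.162) in callosum and 0.66 ± 0.14 (adjusted p = 4.19e-05) in culture in the authors' deposited table. Those reads cover the whole gene, which checks neither the deletion nor the labels.

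Sequence was looked at first for letters that quaking is known to bind, because the 10 RNAs could carry them. The core searched was ACTAAC or ACTAAT (with U for T in the RNA) in the 3′ UTR of 1 protein-coding transcript per gene (GENCODE M21, GRCm38), on the transcript strand. It was present in 6 of the 10 genes, namely Aspa, Car2, Qdpr, Carns1 and Plekhb1 with 1 match each and Klk6 with 2. Ndrg1, Adamts4, Serpinb1a and Plekhh1 had no match in these windows. Over 20735 genes the share with a match was 30.1%, and the share rises with length. Among 3′ UTRs from 80% to 125% as long, it was 15.1% for Aspa (444 bases), 13.8% for Klk6 (383 bases), 16.8% for Qdpr (520 bases), 19.8% for Car2 (680 bases) and 29.6% for Plekhb1 (1034 bases). A further TAAC or TAAT within 20 bases accompanied the core in Aspa alone, and 5.32% of 3′ UTRs of similar length hold such a pair. Windows of 30 bases around the core are shown for the genes with an entry in the RefSeq promoter table, because 3 of them fell in culture and 1 in callosum. Capitals mark the core, and each run is given 5′ to 3′ on the gene's strand.
Aspa, chr11:73305051-73305080, minus strand: gtgctaatcaaaACTAATagtacagacttt
Qdpr, chr5:45434516-45434545, minus strand: tctcgaaacatcACTAACctgtctgtattg
Plekhb1, chr7:100643906-100643935, minus strand: ctcagcacagacACTAATaaagacatgatt
Klk6 first match, chr7:43831893-43831922, plus strand: cgcagtgtgcccACTAACagtctgggtacc
Klk6 second match, chr7:43831965-43831994, plus strand: taaaattgggatACTAACggagctggagaa
A match describes letters and is not a binding site.

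Promoters of 5 of the 10 genes (Aspa, Klk6, Plekhb1, Plekhh1, Qdpr) are in the RefSeq table for GRCm38.p6, which holds windows of 300 bases around each start, most of them upstream. Searched on both strands were CTGGCAC and CTGGTAC, letters bound by the myelin gene regulator MYRF, and ACAAAG and ACAATG, letters bound by SOX factors. The MYRF letters were in none of the 7 promoters of these genes and in 7.10% of all 32851 promoters. SOX letters were in 1 promoter of Klk6, with 2 matches, and in 1 of Plekhb1, with 1 match, against 28.6% of all promoters. The promoters of Klk6, which fell in callosum, and of Aspa and Plekhb1, which fell together in culture, are printed with the SOX letters in capitals.
Klk6, chr7:43824294-43824593, plus strand: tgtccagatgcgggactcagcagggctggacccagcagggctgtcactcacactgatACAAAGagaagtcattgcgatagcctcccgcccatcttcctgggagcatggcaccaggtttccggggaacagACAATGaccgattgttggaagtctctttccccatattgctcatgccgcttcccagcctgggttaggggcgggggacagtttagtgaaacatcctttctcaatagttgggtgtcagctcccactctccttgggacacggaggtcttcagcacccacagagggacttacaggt
Aspa, chr11:73324588-73324887, minus strand: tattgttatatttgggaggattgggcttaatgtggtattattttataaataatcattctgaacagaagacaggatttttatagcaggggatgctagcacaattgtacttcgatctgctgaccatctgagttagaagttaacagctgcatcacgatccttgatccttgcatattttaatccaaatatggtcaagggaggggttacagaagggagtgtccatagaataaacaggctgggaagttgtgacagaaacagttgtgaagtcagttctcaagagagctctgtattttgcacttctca
Plekhb1, chr7:100656916-100657215, minus strand: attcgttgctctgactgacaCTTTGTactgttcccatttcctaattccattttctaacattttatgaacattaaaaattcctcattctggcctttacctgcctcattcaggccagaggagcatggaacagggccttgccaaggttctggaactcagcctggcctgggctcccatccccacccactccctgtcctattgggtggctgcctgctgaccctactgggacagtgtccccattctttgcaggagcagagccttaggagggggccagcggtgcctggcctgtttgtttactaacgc
The Aspa promoter is poor in G and C (39.0%, against a median of 52.7% over all promoters), and the Klk6 promoter lies near the median at 55.7%.

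In the corpus callosum labelled WT, the genes spanned a wide range of levels per kilobase. Car2 was highest at 97.5 CPM per kilobase, followed by Plekhb1 at 72.6 and Qdpr at 71.3 CPM per kilobase. Ndrg1 (18.5), Plekhh1 (11.6) and Adamts4 (10.8 CPM per kilobase) formed a middle group. Aspa (6.57), Serpinb1a (6.38), Klk6 (3.93) and Carns1 (2.05 CPM per kilobase) were lowest. The fitted levels carry no spread, so neighbours in this order, such as Plekhb1 and Qdpr or Aspa and Serpinb1a, were not told apart. All 9 defining oligodendrocyte markers were tested there, with a summed level of 7132 CPM in WT, led by Mbp at 2925 CPM. Neuron markers summed to 6682 CPM in WT, so these are levels of a mixed tissue.

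The cultures labelled WT showed another order. Plekhb1 was highest at 61.5 CPM per kilobase, then Car2 (29.9), Qdpr (13.3) and Adamts4 (10.9 CPM per kilobase). Serpinb1a (1.14), Plekhh1 (1.08), Aspa (0.941) and Carns1 (0.464 CPM per kilobase) lay well below them. Ndrg1 had 0.122 CPM per kilobase and Klk6 0.0188 CPM per kilobase, which for Klk6 is a mean normalized count of 1.52 per library. The tables were normalized separately, so these levels stand beside those of the callosum without a test. Oligodendrocyte markers summed to 3487 CPM in these cultures and astrocyte markers to 14252 CPM, while Mog, a late myelin marker, had 12.2 CPM, so markers of both cell types are present in the cultures.

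**Figure D1:**
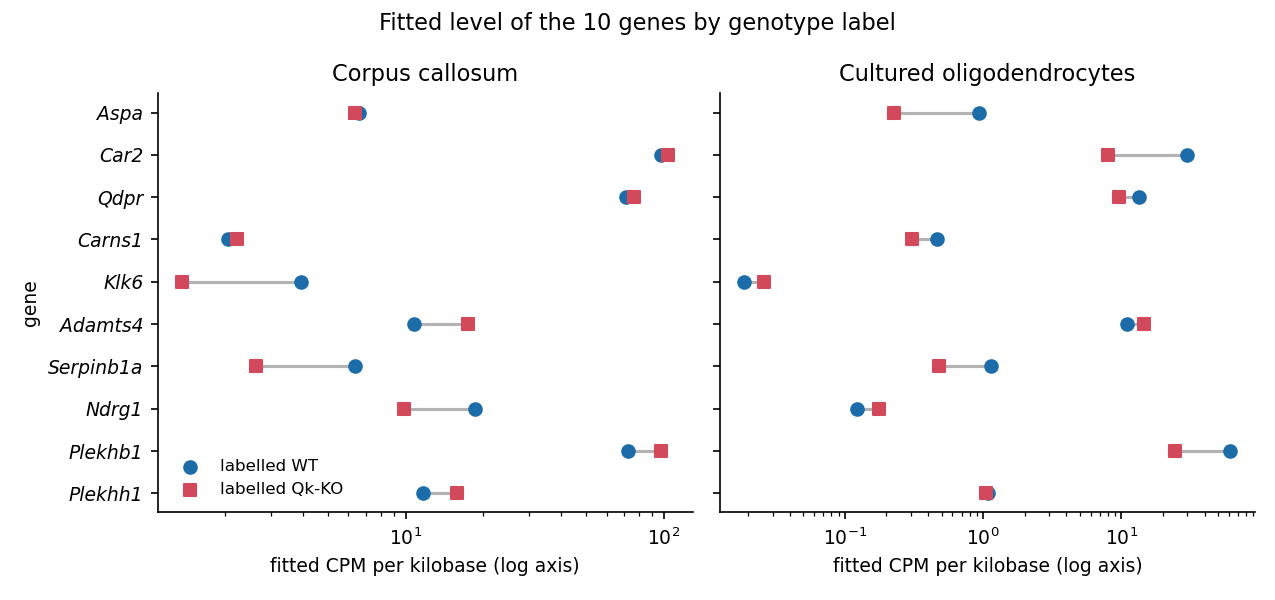
Fitted CPM per kilobase of exon (log axis) of each gene in libraries labelled WT (blue circles) and Qk-KO (red squares), in callosum and in culture; each point stands for all libraries of a genotype and has no error bar because the deposited columns carry no spread. Klk6, Serpinb1a and Ndrg1 are lower in the Qk-KO callosum, while Aspa, Car2 and Plekhb1 are lower in the Qk-KO cultures.

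In the callosum, libraries labelled Qk-KO had less RNA of a protease, a protease inhibitor and Ndrg1, and more of the protease Adamts4. Klk6, Serpinb1a and Ndrg1 fell, Adamts4 rose, and the remaining 6 did not pass. Over all tested genes, 0.231% were called lower and 2.09% higher, beside 3 of 10 lower calls here. The members were chosen with earlier results of these data known, so that count describes them and is not a test of the group. The median change over the 10 genes was 0.07, against -0.01 over all tested genes. In bulk tissue, fewer cells of a type and less RNA per cell cannot be told apart.

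The metabolic enzymes showed no call in callosum. Aspa, which splits N-acetylaspartate from neurons into acetate and aspartate and whose loss causes Canavan disease in humans, had 39.1 CPM in WT and 37.9 CPM in Qk-KO. Its change of -0.07 ± 0.15 in the authors' deposited table has a 95% interval from -0.35 to 0.22. Car2, carbonic anhydrase 2, which interconverts carbon dioxide and bicarbonate, had 236 and 251 CPM (0.07 ± 0.18, interval -0.29 to 0.42, authors' deposited table). Qdpr, which regenerates the cofactor tetrahydrobiopterin, had 127 and 136 CPM, a change of 0.08 ± 0.16 (interval -0.24 to 0.40) in the authors' deposited table. Carns1, the synthase of the dipeptide carnosine, had 9.26 and 10.1 CPM (0.10 ± 0.23, interval -0.34 to 0.54, authors' deposited table). For all 4 the adjusted p was 1.00 in the authors' deposited table, and falls below 78.4% of the WT level for Aspa or 81.9% for Car2 lie outside these intervals.

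The secreted proteases Klk6 and Adamts4 moved in opposite directions in callosum, and the protease inhibitor Serpinb1a fell. Klk6, a trypsin-like serine protease abundant in myelinating cells of the central nervous system, had 5.94 CPM in WT and 2.06 CPM in Qk-KO. It fell to 34.2% of WT (log2 -1.55 ± 0.35, adjusted p = 7.70e-04, authors' deposited table), and 9 of the 19935 tested genes, itself included, fell at least as far. Its mean normalized count was 83.9 per library, and its SE was the widest of the 10 genes. Serpinb1a, an intracellular inhibitor of neutrophil-type serine proteases, had 14.7 CPM in WT and 6.05 CPM in Qk-KO. It fell to 40.6% of WT (-1.30 ± 0.18, adjusted p = 6.33e-11, authors' deposited table), with 16 tested genes falling at least as far. Adamts4, a metalloprotease that cleaves aggrecan-type proteoglycans of the extracellular matrix, went the other way, with 51.9 CPM in WT and 83.5 CPM in Qk-KO. It rose to 158% of WT (0.66 ± 0.17, adjusted p = 0.00505, authors' deposited table), and 533 tested genes, itself included, rose at least as far.

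Among the membrane and trafficking genes, Ndrg1 fell and the pleckstrin homology genes did not pass in callosum. Ndrg1, whose loss causes a demyelinating neuropathy of peripheral nerve in humans, had 122 CPM in WT and 65.1 CPM in Qk-KO. It fell to 52.5% of WT (-0.93 ± 0.16, adjusted p = 2.44e-06, authors' deposited table), with a 95% interval of 42.0% to 65.6%. Plekhb1, which carries a pleckstrin homology domain and a membrane anchor, had 269 and 362 CPM (0.40 ± 0.16, adjusted p = 0.241, authors' deposited table). Plekhh1, a larger protein with pleckstrin homology, MyTH4 and FERM domains, had 78.2 and 106 CPM, with a change of 0.42 ± 0.16 (adjusted p = 0.226, authors' deposited table). Both intervals lay above 0 before adjustment (107% to 163% and 108% to 166% of WT).

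**Figure D2:**
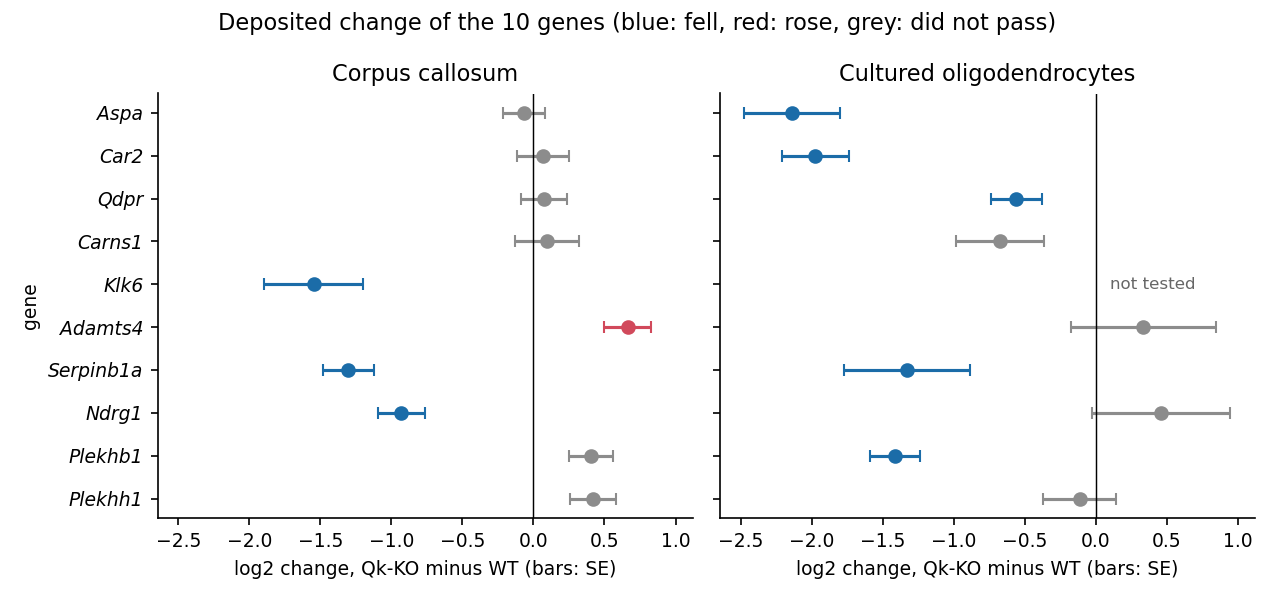
Log2 change (labelled Qk-KO minus WT) with its SE from the authors' deposited tables, by gene, in callosum and in culture; blue marks a fall and red a rise at an adjusted p under 0.05, grey marks genes that did not pass, and Klk6 was not tested in culture. Serpinb1a is the gene with a blue point on both sides, at -1.30 and -1.33.

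The falls in callosum took place among other mature oligodendrocyte genes that mostly rose or did not pass. Of 36 further genes of mature oligodendrocytes and myelin, 14 rose and 3 fell, with a median change of 0.38. The shares over all tested genes were 2.09% higher and 0.231% lower. Gsn, an actin-severing protein, had 149 CPM in WT and 558 CPM in Qk-KO (1.88 ± 0.21, adjusted p = 1.23e-16), and Mog had 107 and 236 CPM (1.12 ± 0.15, adjusted p = 1.81e-11) in the authors' deposited table. The 3 that fell, named after their values were seen, were Anln (-1.22 ± 0.21), Hapln2 (-0.86 ± 0.17) and Efhd1 (-0.61 ± 0.15) in the authors' deposited table. Anln encodes the scaffold protein anillin and Hapln2 a link protein of the perinodal matrix. Mbp had 2925 and 3271 CPM without a call (0.14 ± 0.16, authors' deposited table). Markers of other cells moved as well. Microglia markers rose in 7 of 10 cases, with a summed level of 301 CPM in WT and 633 CPM in Qk-KO, and astrocyte markers rose in 2 of 10 (5056 and 6229 CPM). Choroid plexus markers were called in none of 6 cases by the authors' DESeq2 test (6 lower at an unadjusted p under 0.05), with summed levels of 2015 and 1170 CPM. Neuron markers were called in none of 10 cases by the authors' DESeq2 test (1 lower at an unadjusted p under 0.05). They summed to 6682 and 6266 CPM, so the callosum libraries also hold much RNA of neurons. Defining oligodendrocyte markers summed to 7132 and 7501 CPM. The part of these other cells in the changes of Klk6, Serpinb1a, Ndrg1 and Adamts4 was not tested.

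Genes that work beside the 10 were mostly not called in callosum. The same holds for all tested genes there, of which 2.09% were called higher and 0.231% lower. Of the acetylaspartate pathway (11 tested), the carbonic anhydrases (13), the carriers of bicarbonate, protons and lactate (9) and the tetrahydrobiopterin pathway (12), none was called by the authors' DESeq2 test. At an unadjusted p under 0.05 these 4 lists had 1 higher and 1 lower, 1 and 2, 1 and 1, and 0 and 0. Nat8l, the neuronal enzyme that makes N-acetylaspartate, had 272 and 262 CPM (-0.07 ± 0.17, authors' deposited table). Of 12 tested carnosine and beta-alanine genes 2 rose, both peptide carriers. They were Slc15a3 (2.03 ± 0.25, from 1.48 to 6.11 CPM) and Slc15a4 (0.60 ± 0.17) in the authors' deposited table. In the Ndrg family, Ndrg2, an astrocyte-rich relative, fell slightly (-0.28 ± 0.09, adjusted p = 0.0496) and Ndrg4 had -0.23 ± 0.13 in the authors' deposited table. Of 16 hypoxia response genes, a class to which Ndrg1 also belongs, 1 rose, Hk2 (0.91 ± 0.21, authors' deposited table).

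The relatives of the protease genes showed few calls in callosum, to be read against 2.09% higher and 0.231% lower over all tested genes. Among kallikreins, 2 of 12 were tested, and none was called by DESeq2 or at an unadjusted p under 0.05. Klk8 had 3.90 and 3.60 CPM (-0.14 ± 0.33, authors' deposited table). Of 18 ADAMTS proteases 1 rose, Adamts2 (0.62 ± 0.16, authors' deposited table), and of 4 tested ADAMTS substrates and inhibitor genes none was called, also at an unadjusted p under 0.05. Ncan, a proteoglycan that Adamts4 can cleave, had 203 and 217 CPM (0.07 ± 0.14, authors' deposited table). Of 5 tested clade B serpins none was called by the authors' DESeq2 test (1 lower at an unadjusted p under 0.05). Serpinb1b, a near copy of Serpinb1a, had 3.26 and 2.46 CPM (-0.43 ± 0.34, authors' deposited table). How the counting treated reads that match both genes is not given in the sources used here, so the level of each may be uncertain. The elastase-type target Prtn3 had 0.524 CPM in WT, and 2 of the 3 neutrophil serine proteases had no reads. In the Plekh family, 2 of 26 rose, Plekha1 (0.64 ± 0.12) and Plekhg3 (0.63 ± 0.18), and Plekhb2 had -0.08 ± 0.08 in the authors' deposited table.

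When the deposited score was read against a Student distribution instead of a normal one, none of the 4 callosum calls held (adjusted p from 0.114 to 0.508, authors' DESeq2 statistics), and 8 of all tested genes passed. Leaving out single animals is not possible with fitted columns.

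In culture, RNA of most of the enzymes was lower in libraries labelled Qk-KO. Aspa, Car2, Qdpr, Plekhb1 and Serpinb1a fell, and Carns1, Ndrg1, Adamts4 and Plekhh1 did not pass. Over all tested genes 15.2% were called lower and 13.3% higher, beside 5 of 9 lower calls here. Because the members were chosen with earlier results known, that count too is a description and not a test. No member was called higher by the authors' DESeq2 test, also at an unadjusted p under 0.05. The median change over the 9 tested genes was -0.67, against 0.01 over all tested genes. Scaling by library sums turned the split of all calls from 2336 higher and 2667 lower to 3054 and 2296, or to 3405 and 2151 without mitochondrially encoded genes, while the same number of members, 5, passed.

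Among the enzymes, Aspa had 5.60 CPM in WT cultures and 1.34 CPM in Qk-KO cultures. It fell to 22.7% of WT (log2 -2.14 ± 0.34, adjusted p = 5.08e-09, authors' deposited table), with a 95% interval of 14.4% to 35.9%. Car2 had 72.5 CPM in WT and 19.5 CPM in Qk-KO. Its level fell to 25.5% of WT (-1.97 ± 0.24, adjusted p = 7.43e-15, authors' deposited table), and its interval of 18.4% to 35.2% covers the value of Aspa. Qdpr had 23.9 and 17.1 CPM and fell less, to 67.9% of WT (-0.56 ± 0.18, adjusted p = 0.00852, authors' deposited table). In all, 3035 of 17503 tested genes fell at least as far as Qdpr, against 175 for Aspa and 228 for Car2. Carns1 had 2.10 and 1.39 CPM without passing (-0.67 ± 0.31, adjusted p = 0.0860, interval -1.28 to -0.07, authors' deposited table).

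Adamts4 was not called in culture, and Serpinb1a fell. Serpinb1a had 2.63 CPM in WT and 1.11 CPM in Qk-KO, at a mean normalized count of 84.0 per library. It fell to 39.9% of WT (-1.33 ± 0.44, adjusted p = 0.0129, authors' deposited table), with an interval from 21.8% to 72.8%. Adamts4 had 52.6 and 70.0 CPM, and its change of 0.33 ± 0.51 (adjusted p = 0.696, authors' deposited table) has an interval from -0.67 to 1.34, which holds both no change and the rise seen in callosum. Klk6 was too low to be tested.

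The membrane genes differed among themselves in culture. Plekhb1 had 228 CPM in WT and 90.6 CPM in Qk-KO, the most abundant of the 10 per kilobase. It fell to 37.6% of WT (-1.41 ± 0.18, adjusted p = 8.74e-14, authors' deposited table), with an interval from 29.5% to 47.9%. Plekhh1 had 7.23 and 7.05 CPM (-0.11 ± 0.26, adjusted p = 0.805, interval -0.61 to 0.39, authors' deposited table). Ndrg1 had 0.807 and 1.17 CPM, a mean normalized count of 43.1, with 0.46 ± 0.49 (adjusted p = 0.538, interval -0.49 to 1.42) in the authors' deposited table. A fall to 52.5% of WT, as in callosum, lies outside the interval of 71.1% to 267%. The interval rests on few reads, assumes a normal score and may reflect technical spread alone, so it may be too narrow. Such a fall was therefore not taken as excluded.

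Other genes of mature oligodendrocytes were mixed in culture, and astrocyte markers fell. All counts here are to be read against 15.2% lower and 13.3% higher over all tested genes. Of 35 tested further genes of mature oligodendrocytes and myelin, 3 rose and 8 fell, not far from those shares, with a median of -0.31. Sept4 (-1.85 ± 0.24), the myelin lipid raft gene Mal (-2.61 ± 0.35) and Cryab (-1.37 ± 0.24) fell, while Cnp had -0.19 ± 0.28 in the authors' deposited table. The 3 that rose, named after their values were seen, were the myelin lipid enzyme gene Fa2h (0.73 ± 0.25) and the late markers Mog (1.28 ± 0.52) and Opalin (1.49 ± 0.58) in the authors' deposited table. Astrocyte markers fell in 8 of 10 cases, with a summed level of 14252 CPM in WT and 4241 CPM in Qk-KO. Gfap went from 4008 to 408 CPM and Gja1 from 2408 to 540 CPM. Neuron markers rose in 7 of 9 tested cases (748 and 1755 CPM summed). Defining oligodendrocyte markers summed to 3487 and 3341 CPM, with Olig2 and Olig1 higher (0.81 ± 0.16 and 0.61 ± 0.14) in the authors' deposited table. Precursor markers had 1 rise and 3 falls among 8 (3473 and 3065 CPM summed). Of the microglia markers 4 of 10 had no reads, among them Trem2 and Itgam. The part of the astrocyte change in the falls of Aspa, Car2, Qdpr, Plekhb1 and Serpinb1a was not tested.

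**Figure D3:**
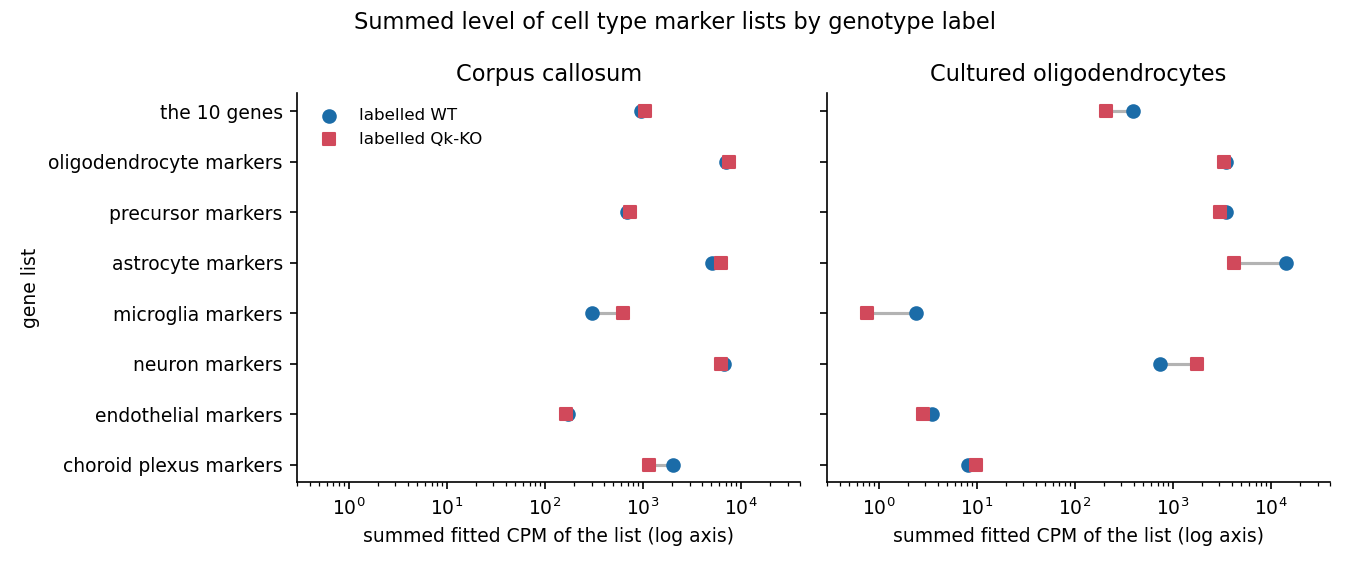
Summed fitted CPM (log axis) of the 10 genes and of marker lists of 7 cell types, in libraries labelled WT (blue circles) and Qk-KO (red squares). In culture the sum of the 10 genes goes from 396 to 209 CPM and that of the astrocyte markers from 14252 to 4241 CPM, while the oligodendrocyte markers stay between 3341 and 3487 CPM; in callosum the 10 genes sum to 954 and 1061 CPM.

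Genes beside the enzymes gave mixed counts in culture, to be read against 15.2% lower and 13.3% higher over all tested genes. In the acetylaspartate pathway 6 of 11 fell and 1 rose, with a median of -0.51. The carriers and peptidases Slc13a3 (-1.02 ± 0.19), Folh1 (-1.11 ± 0.25) and Acy1 (-0.79 ± 0.19) fell, and the citrate carrier gene Slc13a5 rose (2.52 ± 0.54, from 0.137 to 0.831 CPM) in the authors' deposited table. Of 12 tested carbonic anhydrases 4 fell. They were Car3 (-2.57 ± 0.38), Car5b (-1.41 ± 0.24), Car13 (-2.40 ± 0.66) and Car14 (-1.14 ± 0.39) in the authors' deposited table. Among 9 tested bicarbonate, proton and lactate carriers 2 fell, a share not far from that over all genes. Slc4a4, a sodium bicarbonate cotransporter prominent in astrocytes, went from 596 to 213 CPM (-1.56 ± 0.19), and Slc4a2 changed by -0.77 ± 0.19 in the authors' deposited table. In the tetrahydrobiopterin pathway 2 of 12 fell and 1 rose, near the shares over all genes. Pts, a synthesis enzyme, fell (-0.60 ± 0.16) and Agmo, a user of the cofactor, fell (-1.36 ± 0.33), while the serotonin enzyme gene Tph2 rose (1.12 ± 0.43, from 0.388 to 0.889 CPM) in the authors' deposited table. Of 8 tested carnosine and beta-alanine genes 3 fell, among them the peptide carrier Slc15a2 (-1.40 ± 0.26, authors' deposited table).

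The other relatives varied in culture, to be read against the same 15.2% lower and 13.3% higher over all tested genes. Ndrg2 fell (-1.37 ± 0.13, from 1299 to 530 CPM), and Ndrg3 had 0.22 ± 0.12 in the authors' deposited table. Of 15 tested hypoxia response genes 2 rose and 4 fell, Slc2a1 (-0.97 ± 0.20) and Egln3 (0.93 ± 0.26) among them in the authors' deposited table. No kallikrein of the 12 was tested, and 7 had no reads. The only tested protease-activated receptor, F2r, fell from 89.7 to 39.7 CPM (-1.25 ± 0.15, authors' deposited table). Of 15 tested ADAMTS proteases 3 rose and 3 fell. Adamts15 rose (2.74 ± 0.37, from 0.616 to 4.33 CPM) and Adamts1 fell (-1.44 ± 0.22, from 41.5 to 16.1 CPM) in the authors' deposited table. The proteoglycan gene Bcan fell (-0.89 ± 0.21), and Timp3, which encodes an inhibitor of these proteases, rose (0.70 ± 0.16) in the authors' deposited table. Of 4 tested clade B serpins 3 fell, Serpinb8 (-1.81 ± 0.47), Serpinb5 (-1.86 ± 0.57) and Serpinb9 (-0.89 ± 0.29) in the authors' deposited table. Among 27 tested Plekh genes 5 rose and 8 fell. Plekhb2, the closest relative of Plekhb1 and named outside the rule, went from 79.4 to 55.6 CPM (-0.59 ± 0.15, authors' deposited table).

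Read against a Student distribution, none of the 5 culture calls held (adjusted p from 0.0610 to 0.188, authors' DESeq2 statistics), and no gene of the whole table passed. Serpinb1a rests on the fewest reads of the 5 and did not pass at a threshold of 0.01.

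The change differed between the systems for 5 of the 9 genes tested in both tables. A z test compared the deposited changes with their SE over 16601 genes, of which 21.5% passed (1633 with the higher change in culture and 1944 with the lower). Without mitochondrially encoded genes in the library sums, that split was 2265 and 1643. Aspa changed by -0.07 in callosum and by -2.14 in culture, a difference of -2.07 ± 0.37 (adjusted p = 4.72e-07). For Car2 the difference was -2.04 ± 0.30 (adjusted p = 5.06e-10), and for Plekhb1 it was -1.81 ± 0.24 (adjusted p = 1.15e-12), from 0.40 in callosum to -1.41 in culture. Qdpr differed by -0.63 ± 0.24 (adjusted p = 0.0417). Ndrg1 went the other way, with -0.93 in callosum, 0.46 in culture and a difference of 1.39 ± 0.51 (adjusted p = 0.0349). That test uses the culture change of Ndrg1, which rests on a mean normalized count of 43.1 and whose interval may be too narrow. The difference of Ndrg1 is therefore uncertain. Thus 4 of the 5 differences had the lower change in culture.

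Serpinb1a fell in both systems, and the difference between its changes was -0.02 ± 0.48 with a 95% interval from -0.96 to 0.91. That interval is wide, so similar size was not shown. Adamts4 (-0.33, interval -1.38 to 0.73), Plekhh1 (-0.53, interval -1.12 to 0.06) and Carns1 (-0.77, interval -1.52 to -0.02, adjusted p = 0.143) did not pass the z test. Klk6 had no test of the difference. Calls in callosum alone were 3, in culture alone 4, in both 1, and 2 genes, Carns1 and Plekhh1, were called in neither. Over all tested genes, 463 were called in callosum and 5003 in culture, and their overlap was not counted. The overlap of the member calls therefore has no background to be read against, and whether it differs from that of other genes was not tested. Qdpr and Ndrg1 lost the call of a difference when genes of low counts entered the adjustment (adjusted p = 0.0663 and 0.0555), and Qdpr also when library sums set the scale (adjusted p = 0.0658).

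**Figure D4:**
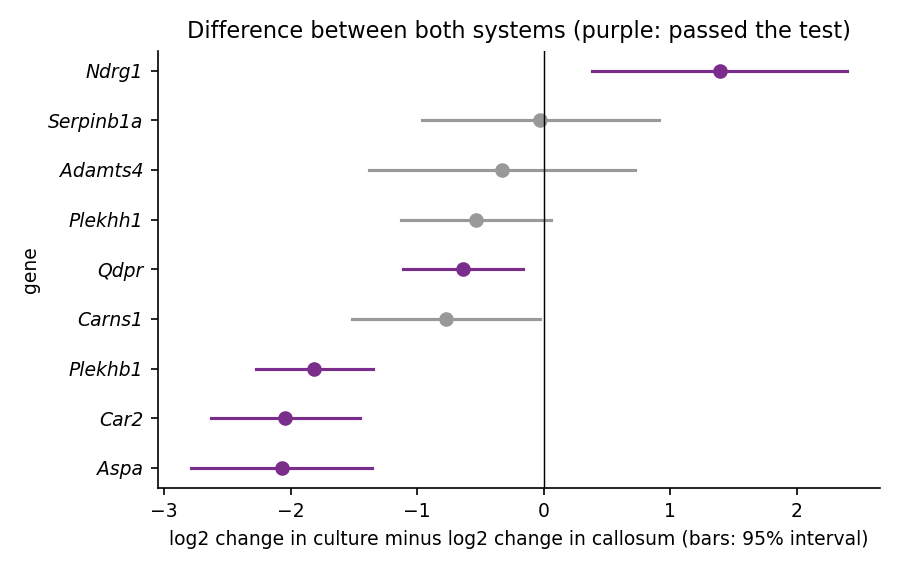
Change in culture minus change in callosum on the log2 scale for the 9 genes tested in both tables, with 95% intervals; purple marks genes that passed the z test. Aspa, Car2 and Plekhb1 lie between -2.07 and -1.81, Qdpr at -0.63 and Ndrg1 at 1.39, where Ndrg1 rests on few reads in culture.

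Set beside the 3′ UTR search, 4 of the 6 genes with the core fell in culture (Aspa, Car2, Qdpr and Plekhb1). Klk6, also with the core, was too low to be tested there. Of the 4 without the core, 1 fell in culture (Serpinb1a). In callosum 1 of the 6 with the core fell (Klk6), against 2 of the 4 without it (Serpinb1a and Ndrg1). Over all tested genes, 15.2% were called lower in culture and 0.231% in callosum, and the share among all genes with the core was not counted. These are counts over 10 genes without a test. The 10 genes lie on 9 chromosomes, with Klk6 and Plekhb1 both on chromosome 7, at 43824499 to 43832030 on the plus strand and 100642892 to 100662414 on the minus strand (GRCm38). Exonic lengths ran from 1513 bases for Klk6 to 6718 bases for Plekhh1.

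Overlapping genes limit a few of these values, since the strand setting of the counting is not given in the sources used here. Carns1 shares 40.3% of its exonic length with the antisense gene Gm17552, which had 2.38 CPM in WT callosum, and 29.7% with a transcript on its own strand. Qdpr shares 18.6% with Gm42413, and Plekhh1 shares 14.8% with Pigh on the opposite strand, which had 6.95 CPM in WT callosum and 14.6 CPM in WT culture. Aspa, Car2, Klk6, Serpinb1a and Plekhb1 share no exonic base with another gene of GENCODE M21. Ndrg1 shares 6.35% with Gm17035, which had no reads.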

How the data were processed

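RNA-seq of 8 callosum and 6 culture libraries was used as deposited. The authors used FastQC, TopHat2 2.0.14, featureCounts and DESeq2 with mm10, per the submitters' processing notes; the sources used here give no settings, annotation or strand. The authors' library columns hold log2 of a fitted mean plus 1: within a genotype libraries differ by 1 factor, within 1e-09, so the planned refits on counts, leaving out replicates and blocking were not possible. The mean column is a deposited signal, the average of counts divided by size factors. The authors' deposited log2 fold change (WT over Qk-KO, sign turned here), its score and its p-value and adjusted p-value (DESeq2, Benjamini-Hochberg) gave all calls within a system. Folds of genes with few reads look shrunken toward 0 and may be understated. Folds follow the authors' size factors, CPM follows library sums, so both can differ slightly. Intervals are 1.96 SE wide on each side and assume a normal score.

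The difference between systems was a two-sided z test, adjusted over 16601 genes and tested on simulated data. Gene IDs without version matched GENCODE M21 for 46488 of 46983 genes. The members and gene lists were chosen with earlier results of these data known. Named are all 10 members and, per list and table, up to 4 called genes with the smallest p and the most abundant one that did not pass, of which a part is printed. Exceptions are marked. Some results are not reported here. Python 3.11.15, pandas 2.3.3 and scipy 1.17.1 were used.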

Additional observations from a re-analysis of the deposited data

Results flagged for a closer look

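For 5 genes the change between libraries labelled Qk-KO and WT differed between culture and callosum by the z test. Culture minus callosum was -2.07 for Aspa, -2.04 for Car2, -1.81 for Plekhb1, -0.63 for Qdpr and 1.39 for Ndrg1 on the log2 scale. The value of Ndrg1 rests on few reads in culture and is uncertain. Culture and tissue also differ in the treatment that goes with the label and in their cell types, and these cannot be told apart from the system. Single libraries could not be examined for outlying values, because the deposited columns are fitted.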

How the results depend on the processing

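In callosum 4 genes passed and in culture 5 (4 at a threshold of 0.01 or at a 1.5-fold minimum), under each filter and scaling tried, except with the Student reference, where 0 of the 10 passed in either table by the DESeq2 scores (at an unadjusted p under 0.05 by the deposited test, 6 in callosum and 6 in culture). The count of differences between systems went from 5 to 3 at a threshold of 0.01, to 3 with no filter on low counts and to 3 with the Student reference, and was 4 or 5 otherwise. Over all genes, calls went with the Student reference from 463 to 8 in callosum, from 5003 to 0 in culture and from 3577 to 1970 for the difference, which had 2358 at the threshold of 0.01. The Student reference has 6 and 4 degrees of freedom and ignores what the model shares across genes. The difference of Serpinb1a changed sign with library sums (0.029) and with sums without mitochondrially encoded genes (0.069), staying within its error. That last scaling raises culture changes by 0.11. Of 222 values under alternatives, 201 kept direction and call. No paired analysis was possible because the library columns hold fitted means without replicate spread; replicates could not be left out, and no tool was rerun on counts. Depth limits Klk6, Ndrg1, Carns1 and Serpinb1a in culture.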
